A study of Mus musculus with 8 samples.

Results

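Ephrins, Eph receptors, semaphorins, plexins and neuropilins were followed through RNA of SOX4 knockout and control mammary tumor organoids. The genes were taken by symbol, as every mouse gene named as an EphA or EphB receptor, an ephrin-A or ephrin-B, a semaphorin, a plexin or a neuropilin. The families themselves were chosen with earlier results of these data known. The match by symbol gave 53 genes among 38293 gene identifiers in the bulk counts and 44 genes among 15150 in the single-cell counts.

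These families guide growing axons and also shape epithelia and blood vessels. Ephrins are bound to the membrane of one cell and signal through Eph receptor kinases of a neighbour, and they can signal backwards into the cell that carries them. Semaphorins are secreted or membrane-bound cues that act through plexins, and most secreted semaphorins need a neuropilin as co-receptor. Neuropilins also bind vascular growth factors, and in the mammary gland Eph and semaphorin signalling is known for its part in branching and in keeping basal and luminal cells apart.

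The organoids were derived from mammary tumors of MMTV-PyMT mice that also carried MMTV-Cre and an E-cadherin-mCFP reporter. In this model the MMTV promoter drives the PyMT oncogene in mammary epithelium, and all lines share it. SOX4KO lines were made with CRISPR/Cas9 and are compared with control lines of the same origin. Bulk RNA came from 2 control lines (WT1 and WT3) and 3 SOX4KO lines (H7, M4 and H4), and single cells came from 1 control library (GR17) and 2 SOX4KO libraries (GR18 and GR19). All were grown for 4 days after they were split as single cells, in medium with B27 and FGF2. A replicate is an organoid line grown from its own clone, so genotype and clone cannot be told apart within a line, and the labels do not say which bulk line a single-cell library came from.

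Between 3050323 and 4678497 reads per bulk library fell on genes, so 1 read was worth 0.214 to 0.328 CPM, the count scaled to a fixed library total. The single-cell libraries held 362 to 369 cells and 7714119 to 8296953 unique molecular identifiers (UMIs). Summed basal markers were at 1474 to 2288 CPM in the control lines and 2657 to 6710 in the SOX4KO lines. Most of this sum was Sparc, at 1382 and 786 CPM in WT1 and WT3 and 3650, 4866 and 1661 in H7, M4 and H4. Vim, Trp63 and Oxtr were also higher in every SOX4KO line, Krt17 was lower, and Krt14, Krt5 and Mylk overlapped. Summed cycling markers were at 507 to 545 CPM in the control lines and 231 to 304 CPM in the SOX4KO lines. Luminal markers summed to 3241 to 3338 CPM in the control lines and 2202 to 4677 in the SOX4KO lines. Csn3 widened this range, at 357 and 291 CPM in WT1 and WT3 and 719, 150 and 2245 in H7, M4 and H4. Krt8, Krt18, Krt19, Epcam, Cldn3, Cldn7 and Kit were lower in every SOX4KO line than in both control lines, though none was called. Esr1 was higher in every SOX4KO line, and the other luminal markers overlapped. Both sides of the epithelium were present, although the myoepithelial markers Myh11 (0 in all lines) and Acta2 (at most 1.07 CPM) were absent or nearly so. The endothelial sum was 1.10 to 1.92 CPM in the control lines and 1.65 to 2.29 in the SOX4KO lines, with 4 of its 6 markers, Cdh5, Tie1, Emcn and Cldn5, at 0. The fibroblast sum was 93.1 to 109 CPM in the control lines and 51.1 to 88.6 CPM in the SOX4KO lines, with Dpt and Fap at 0. Most of it was Pdgfra, at 78.8 and 107 CPM in WT1 and WT3 and 61.0, 37.7 and 71.5 in H7, M4 and H4. The immune sum was 1.92 in both control lines and 2.12 to 13.9 CPM in the SOX4KO lines, with Cd3e and Lyz2 at 0. Its highest value was nearly all Cd68 in H7, at 13.7 CPM. Neural and glial markers summed to 2.56 to 4.39 CPM in the control lines and 0.656 to 2.82 in the SOX4KO lines. Sox4 itself was at 295 and 374 CPM in WT1 and WT3 and at 199, 179 and 299 in H7, M4 and H4. Its log2 fold change was -0.57 ± 0.25 (SE; adjusted p = 0.277 by edgeR's quasi-likelihood test with Benjamini-Hochberg adjustment), and since the knockout was made by small insertions or deletions, its RNA level does not check the labels.

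The question asked of the bulk data was which guidance genes changed with loss of SOX4. Both neuropilins, the plexins Plxna2 and Plxnd1, the semaphorins Sema5a and Sema3f and the receptor Epha1 rose in SOX4KO organoids, and no gene of these families was called lower. Of the 53 genes, 34 passed the filter on low counts. Of these 34, 7 (20.6%) were called higher at an adjusted p under 0.1 by edgeR's quasi-likelihood test, where 4.10% of all 11682 genes tested were, and 0 were called lower, where 2.17% of all genes were. Of the genes with a negative fold change, 3 had an unadjusted p under 0.05, and DESeq2 called 8 higher and 0 lower, where it called 5.05% and 2.35% of all genes. Without trimmed-mean (TMM) scaling 6 were called higher and 2 lower, where 2.93% and 4.13% of all genes were. In that fit the median of all genes was shifted to -0.15. The 34 had a median log2 fold change of 0.25, against 0.01 over all genes tested, and 24 were positive and 10 negative. The 2 control lines limit these calls: without WT1 1 gene was called, without WT3 0 were, and over all genes the higher calls went from 479 to 93 and to 30. In bulk RNA, fewer cells of a type and less RNA per cell cannot be told apart. The part of shifts in the basal (mostly Sparc), luminal and cycling markers was not tested.

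The receptor side of semaphorin signalling held 4 of the 7 called genes. Plxna2, a plexin that pairs with neuropilins or binds membrane-bound semaphorins directly, was at 3.88 and 2.59 CPM in WT1 and WT3 and at 20.1, 13.0 and 23.9 CPM in H7, M4 and H4. Every SOX4KO line was thus above both control lines, by 5.95-fold (log2 fold change 2.57 ± 0.39 SE, adjusted p = 0.0180). Nrp1, a co-receptor for secreted semaphorins and for vascular growth factors, was at 17.6 and 18.9 CPM in the control lines and at 55.8, 50.03 and 92.9 in the SOX4KO lines. The control lines lay close together and the highest value was in H4, with a 3.63-fold rise (log2 fold change 1.86 ± 0.30 SE, adjusted p = 0.0229). Nrp2, its paralog, was at 5.95 and 3.78 CPM in the control lines and 20.6, 14.0 and 12.0 CPM in the SOX4KO lines. It rose 3.22-fold (log2 fold change 1.69 ± 0.38 SE, adjusted p = 0.0547), and here H7 rather than H4 was highest. Without H7 its call was narrowly lost (1.42, adjusted p = 0.104 by edgeR). Plxnd1, the receptor of Sema3e, was at 16.8 and 21.1 CPM in control against 47.0, 33.5 and 50.3 CPM in SOX4KO lines, a 2.30-fold rise (log2 fold change 1.20 ± 0.24 SE, adjusted p = 0.0418).

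**Figure D1:**
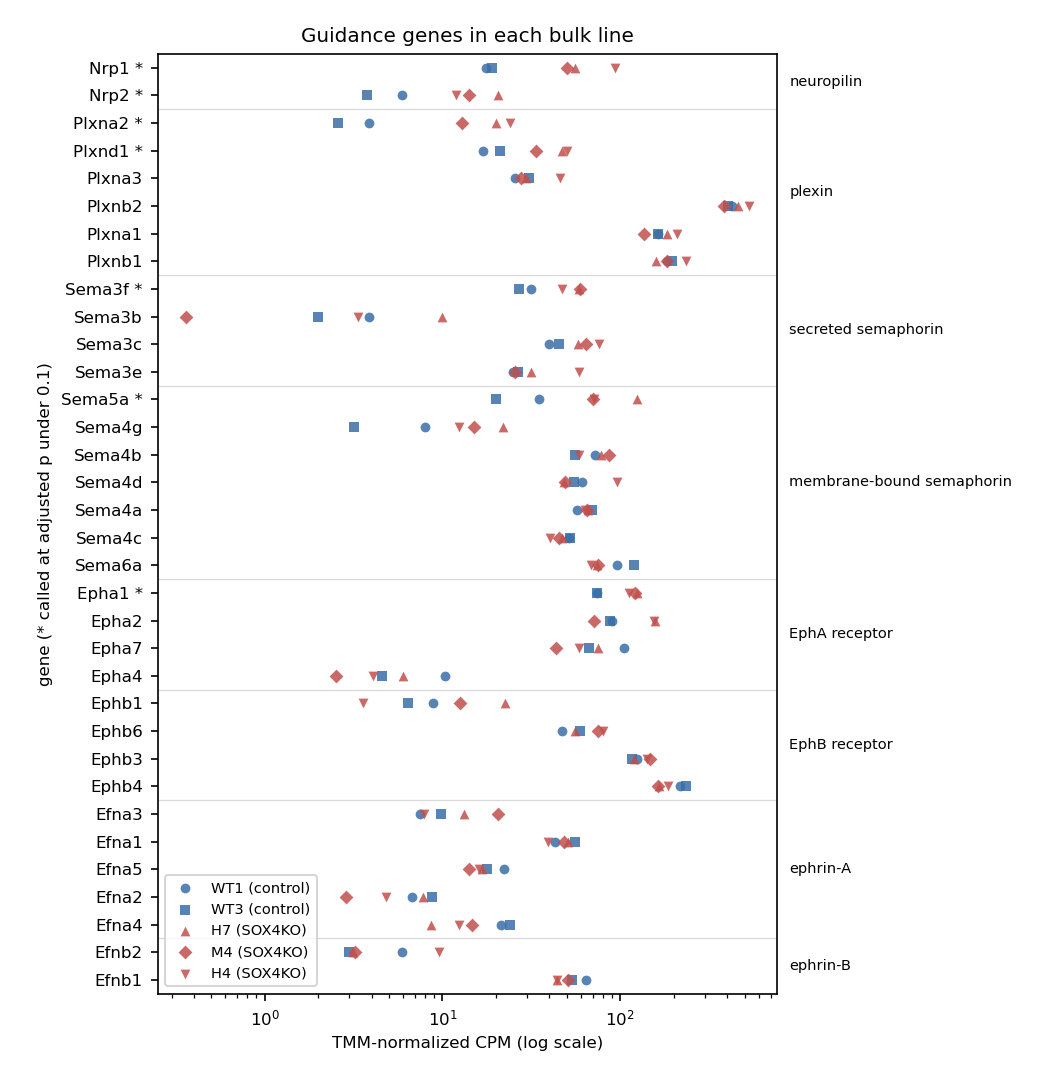
TMM-normalized CPM (log axis) of the 34 guidance genes tested, by family, with a point for each of 2 control lines (blue) and 3 SOX4KO lines (red). For Nrp1, Nrp2, Plxna2 and Plxnd1 all red points lie to the right of both blue points, and for Efna4 and Sema6a they lie to the left.

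The promoters of the 2 genes of largest fold change are shown, as RefSeq gives them for GRCm38.p6 from 250 bases before to 50 after the transcription start, together with that of Efna4, an ephrin at the other end of the range. Capitals mark a match to the SOX-type letters AACAAAG or AACAATG, which were searched on both strands.
Plxna2, chr1:194619579-194619878, plus strand: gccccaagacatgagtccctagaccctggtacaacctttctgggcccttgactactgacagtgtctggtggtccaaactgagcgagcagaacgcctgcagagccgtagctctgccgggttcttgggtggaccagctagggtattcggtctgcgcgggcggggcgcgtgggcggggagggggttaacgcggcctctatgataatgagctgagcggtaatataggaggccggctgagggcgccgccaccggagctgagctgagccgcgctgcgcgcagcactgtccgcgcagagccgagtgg
Nrp1, chr8:128358823-128359122, plus strand: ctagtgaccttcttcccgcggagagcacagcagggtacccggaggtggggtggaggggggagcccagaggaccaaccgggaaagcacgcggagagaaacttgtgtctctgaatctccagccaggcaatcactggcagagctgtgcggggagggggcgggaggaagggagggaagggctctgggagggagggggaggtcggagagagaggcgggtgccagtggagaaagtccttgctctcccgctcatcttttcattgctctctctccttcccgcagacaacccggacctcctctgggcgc
Efna4, chr3:89337979-89338278, minus strand: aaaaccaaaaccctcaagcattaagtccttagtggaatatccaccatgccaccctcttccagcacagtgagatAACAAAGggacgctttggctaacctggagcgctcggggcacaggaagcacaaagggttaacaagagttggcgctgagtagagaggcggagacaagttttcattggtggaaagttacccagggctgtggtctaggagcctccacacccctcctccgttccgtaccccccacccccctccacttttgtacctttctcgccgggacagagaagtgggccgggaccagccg
None of these letters was found in the windows of Plxna2 and Nrp1, whereas that of Efna4 held AACAAAG starting 177 bases before the start. Of the 7 called genes 6 had a promoter in the table, with Sema3f not matched, and 0 of their 6 promoters held a match. Among the 41 promoters of genes tested 3 (7.32%) held one, those of Efna4, Ephb1 and Plxnb1, where 3074 of all 32851 promoters of 300 bases (9.36%) did. A match is a stretch of letters and not a site shown to be bound.

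Plxnb2, Plxnb1 and Plxna1 were among the 10 guidance genes of highest level per kilobase of exon and did not pass the test. Plxnb2, a receptor of membrane-bound Sema4 proteins, was the highest of all 34 genes at 57.0 CPM per kilobase, with 426 and 403 CPM in the control lines and 460, 384 and 529 CPM in the SOX4KO lines. Plxnb1, the receptor of Sema4d, was at 184 and 196 CPM against 158, 182 and 235 CPM, and Plxna1 at 162 and 163 against 183, 136 and 208 CPM. For all 3 genes the groups overlapped, and their log2 fold changes of 0.14 ± 0.20, 0.01 ± 0.20 and 0.11 ± 0.21 (SE) turn negative without TMM scaling. The 95% intervals of Plxnb2 (-0.31 to 0.59) and Plxnb1 (-0.46 to 0.48) leave room for changes in either direction. Plxna3 had a log2 fold change of 0.29 with an adjusted p of 0.633 by the same edgeR test, so 2 of the 6 plexins tested were called.

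**Figure D2:**
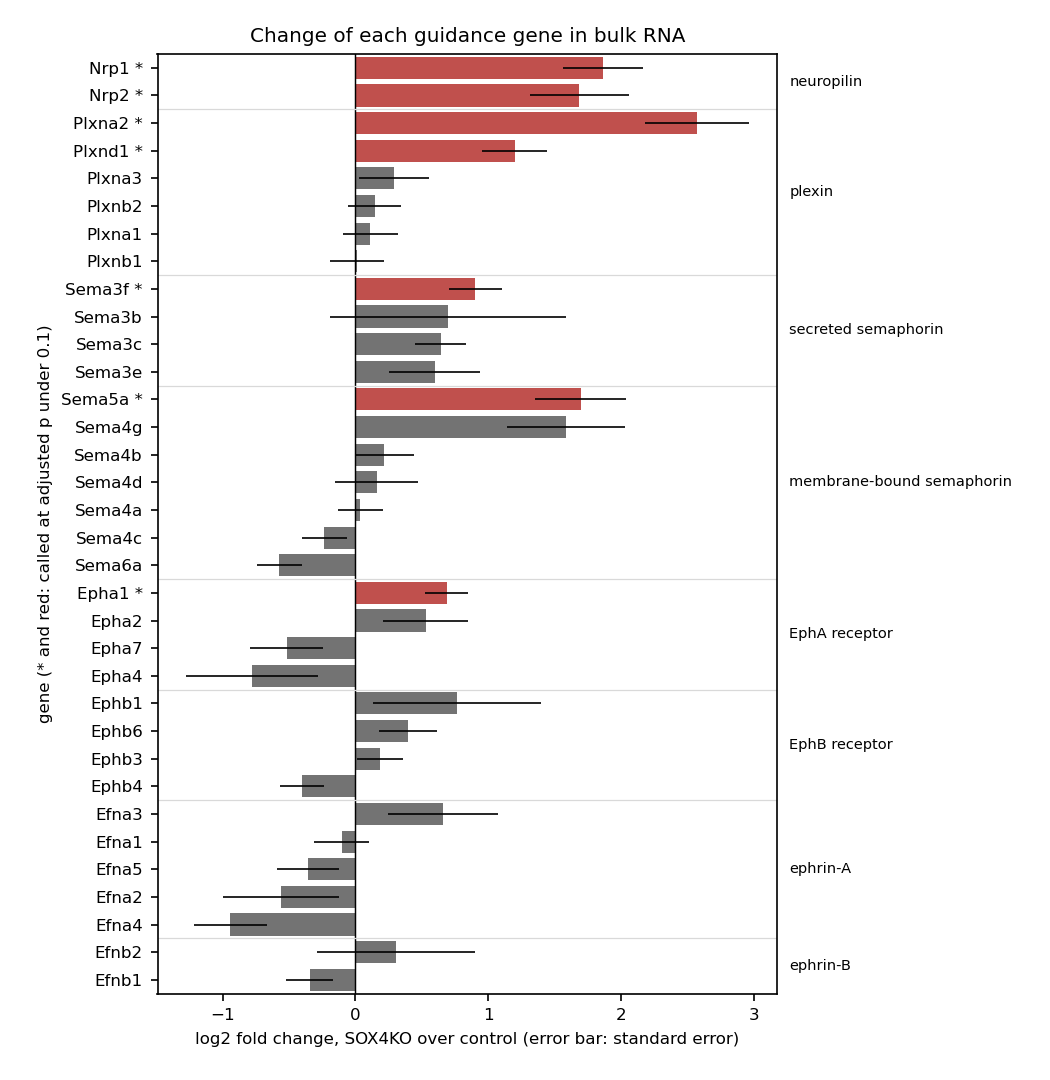
Log2 fold change of SOX4KO over control for the 34 guidance genes tested in bulk RNA, with bars from 0 and standard errors, in red where the adjusted p was under 0.1. Bars in red reach from 0.69 for Epha1 to 2.57 for Plxna2, and all lie above 0.

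Among the ligands of this system, 1 membrane-bound and 1 secreted semaphorin rose. Sema5a, a transmembrane semaphorin with thrombospondin repeats, was at 34.9 and 20.1 CPM in WT1 and WT3 and at 125, 70.2 and 70.9 in H7, M4 and H4. It rose 3.24-fold (log2 fold change 1.70 ± 0.34 SE, adjusted p = 0.0418), and H7 stood well above the other SOX4KO lines. Sema3f, a secreted semaphorin that signals through Nrp2, was at 31.6 and 27.1 CPM in control against 58.7, 59.0 and 46.9 CPM in SOX4KO lines, a 1.87-fold rise (log2 fold change 0.90 ± 0.20 SE, adjusted p = 0.0531). Sema4g was apart in the same direction, at 8.03 and 3.19 CPM against 21.9, 15.1 and 12.5 CPM, but its log2 fold change of 1.58 ± 0.44 missed the threshold (adjusted p = 0.105). DESeq2 did call it, with an adjusted p of 0.0414. Sema3c, named after its values were seen, was at 39.6 and 45.0 CPM against 58.2, 64.1 and 75.9 CPM, also without overlap (log2 fold change 0.64, adjusted p = 0.122).

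Not all semaphorins had higher values. Sema6a, a transmembrane ligand of A-type plexins, was at 95.5 and 120 CPM in the control lines and at 74.4, 74.5 and 68.5 CPM in the SOX4KO lines. The groups did not overlap, and the log2 fold change of -0.57 ± 0.17 had an adjusted p of 0.126 by edgeR. Sema6a is named after its values were seen, and it was called lower in the fits without TMM scaling (log2 fold change -0.74, adjusted p = 0.0710) and without the filter on low counts (-0.58, adjusted p = 0.0835). Of the 7 membrane-bound semaphorins tested 1 was called, and of the 4 secreted ones 1 was. Sema3e, the ligand of Plxnd1, was at 24.9 and 26.7 CPM in the control lines, near M4 at 25.6 and H7 at 31.6, while H4 stood at 58.9.

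Among the Eph receptors, 1 of 8 tested was called. Epha1, an EphA receptor found mainly in epithelia, was at 73.8 and 73.9 CPM in the control lines and at 124, 121 and 112 CPM in the SOX4KO lines. Its 1.61-fold rise was the smallest among the 7 calls and had a log2 fold change of 0.69 ± 0.16 (SE, adjusted p = 0.0634). The call was lost without TMM scaling (0.53, adjusted p = 0.137 by edgeR) and without H7 (0.65, adjusted p = 0.112), as well as without either control line. The exons of Epha1 overlap those of Zyx on the opposite strand by 236 of 3928 bases, and Zyx was itself higher (61.4 and 50.2 CPM against 105, 115 and 108 CPM, adjusted p = 0.0308 by edgeR). The library kit marks strand, but the strand setting used in counting is not given in the sources used here, so the part of Zyx reads in Epha1 was not tested. Epha2, the receptor of Efna1 in epithelia, split the SOX4KO lines: H7 and H4 were at 158 and 154 CPM, M4 was at 71.3, and the control lines were at 89.8 and 88.0. It was not called (log2 fold change 0.53 ± 0.32 SE, adjusted p = 0.443), but without M4 it was (0.81, adjusted p = 0.0345).

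None of the 4 EphB receptors tested was called, although Ephb4, Ephb3 and Ephb6 were among the 10 highest per kilobase. Ephb4, the receptor of Efnb2, was second per kilobase at 41.6 CPM, with 217 and 235 CPM in the control lines and 165, 164 and 185 CPM in the SOX4KO lines. Its groups did not overlap, and the log2 fold change was -0.40 ± 0.16 with an adjusted p of 0.246 by edgeR. Ephb3 was at 123 and 116 CPM against 120, 147 and 141 CPM, and the kinase-dead receptor Ephb6 was at 47.1 and 59.3 CPM against 55.6, 75.2 and 80.0 CPM. Both had overlapping groups, with log2 fold changes of 0.18 ± 0.17 and 0.40 ± 0.22 (SE). Ephb1, named after its values were seen, varied widely between SOX4KO lines, since H7 was at 22.4 CPM and M4 at 12.6, while H4, at 3.59, was under WT1 (8.80) and WT3 (6.37).

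No ephrin, the membrane-bound ligand of the Eph receptors, was called in either direction. All 5 ephrin-A genes were tested, 4 had a negative fold change, and their median log2 fold change was -0.36. Efna4, named after its values were seen, was at 21.5 and 24.1 CPM in WT1 and WT3 and at 8.61, 14.8 and 12.5 in H7, M4 and H4. All SOX4KO lines lay below both control lines, and the log2 fold change of -0.94 ± 0.28 missed the threshold (adjusted p = 0.115 by edgeR) but passed it without TMM scaling (-1.11, adjusted p = 0.0664), without the filter (-0.96, adjusted p = 0.0196) and without M4 (-1.11, adjusted p = 0.0710). Efna1, among the 10 highest per kilobase, was at 42.7 and 55.8 CPM against 50.6, 48.2 and 39.0 CPM with overlapping groups, and its log2 fold change of -0.10 turned positive without WT3 (0.10) or H4 (0.01). Efnb1 was at 63.9 and 53.8 CPM against 44.4, 50.8 and 44.1 CPM, without overlap (log2 fold change -0.34 ± 0.18 SE, adjusted p = 0.365).

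Over all families, 9 of 34 genes (26.5%) had every SOX4KO line above both control lines, where 19.0% of all genes did, and 6 (17.6%) had every SOX4KO line below, where 17.9% did. The second share is near that of all genes and is no result about these families. The 19 genes that did not pass the filter had at most 13 reads in any line, reached by Sema6c, and 9 of them had 0 in every line: Epha3, Epha5, Epha6, Epha8, Plxnc1, Sema3a, Sema3g, Sema5b and Sema6d. The other 10 were Epha10, Ephb2, Efnb3, Plxna4, Plxnb3, Sema3d, Sema4f, Sema6b, Sema6c and Sema7a. For a line with 0 reads, counting error alone allows up to 3 reads.

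Genes around these families were read from a list of 82 other guidance genes, chosen like the families with earlier results of these data known, such as netrins, Slits, Robos, RGMs and the GTPases and kinases behind plexins and Eph receptors. Of the 59 tested, 7 (11.9%) were called higher by edgeR, where 4.10% of all genes were. None (0) was called lower by edgeR, where 2.17% of all genes were, or by DESeq2, and 2 with a negative fold change had an unadjusted p under 0.05. Their median log2 fold change was 0.21, against 0.01 over all genes tested. Pgf, a vascular growth factor that binds neuropilins, was at 66.3 and 82.1 CPM in the control lines and 439, 407 and 303 CPM in the SOX4KO lines (log2 fold change 2.37 ± 0.24 SE, adjusted p = 0.00671). Rras, a small GTPase that plexins inactivate, was at 41.2 and 43.4 CPM against 99.9, 134 and 104 CPM (1.41 ± 0.20, adjusted p = 0.0139). The netrin receptor Unc5b (1.20, adjusted p = 0.0376), the netrin Ntn4 (0.99, adjusted p = 0.0607), the exchange factor Vav3 that acts below Eph receptors (1.41, adjusted p = 0.0566), the kinase Pak1 (0.74, adjusted p = 0.0684) and the GTPase Rnd3 (0.79, adjusted p = 0.0785) also rose by edgeR's test. Without WT1 or without WT3 only 1 of this list was called.

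In single cells, the same genes were compared as UMIs summed over each library, with no test because there was 1 control library. Sema5a stood out in the direction seen in bulk, at 28.6 CPM in GR17, 99.4 in GR18 and 53.0 in GR19. Of the 44 genes with a UMI, 15 reached 20 CPM on average, and 0 of these differed at least 2-fold from control in both SOX4KO libraries, where 1.92% of 6303 genes were that much higher and 0.317% lower. With smaller differences counted, 6 of the 15 were higher in both SOX4KO libraries, 8 were lower in both and 1 was of opposite sign, where 38.8% and 42.5% of all genes were higher and lower. Sema5a had log2 differences of 1.76 in GR18 and 0.87 in GR19, and Ephb6, at 19.1, 52.1 and 27.6 CPM, had 1.40 and 0.51. Sema4a (31.5, 53.3 and 37.7 CPM) and Ephb3 (37.5, 58.1 and 54.6 CPM) were also higher in both, and Plxnb1 (60.7, 43.8 and 43.2 CPM) and Ephb4 (51.6, 40.3 and 36.6 CPM) were lower in both.

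The neuropilins did not repeat their bulk pattern in these sums. Nrp2 was at 60.8, 57.3 and 59.9 CPM in GR17, GR18 and GR19, and Nrp1 at 9.07, 6.99 and 9.88 CPM. The values of each gene lay within a narrow range across genotypes, where bulk had given more than 3-fold. The assays also differed in level. Nrp2 was lower in bulk, at 3.78 to 20.6 CPM of reads, and Nrp1 was higher there, at 17.6 to 92.9 CPM. The reason was not tested. Plxna2 was higher in both SOX4KO libraries at 3.50, 6.24 and 9.04 CPM, from 27, 50 and 75 UMIs. Plxnd1 (0.778, 2.62 and 3.01 CPM) and Sema4g (0.130, 2.62 and 1.45 CPM, from 1, 21 and 12 UMIs) were sparse and in the bulk direction. At a minimum of 5 CPM, 1 of 30 genes was at least 2-fold higher in both SOX4KO libraries and 1 was lower. Of all genes 2.49% and 0.655% were, so these counts are no result about the families. Sema3e was higher, at 3.50, 8.99 and 18.9 CPM, and Ephb1 was lower, at 16.6, 4.24 and 1.45 CPM. Efna4 had lower values in both SOX4KO libraries, as in the bulk lines, at 16.9, 9.49 and 4.94 CPM from 130, 76 and 41 UMIs.

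**Figure D3:**
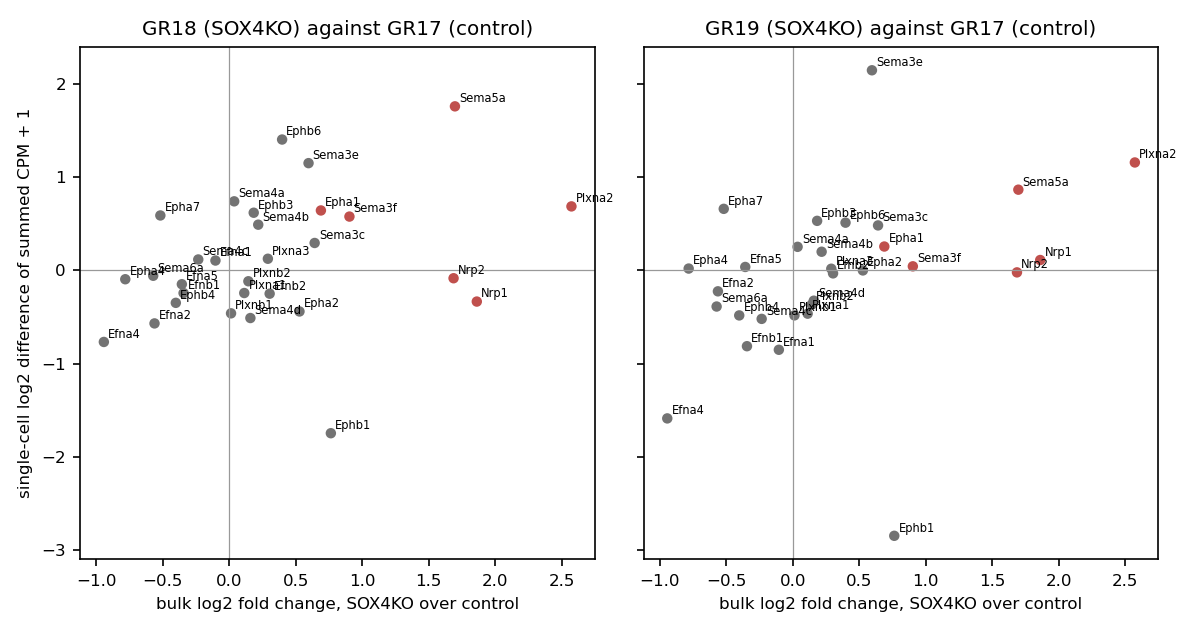
Bulk log2 fold change (x axis) and single-cell log2 difference of summed CPM with 1 CPM added (y axis) for guidance genes with at least 5 CPM in single cells, with GR18 on the left, GR19 on the right and genes called in bulk in red. Sema5a and Plxna2 are above 0 on both axes in both panels, while Nrp1 and Nrp2 lie near 0 on the y axis and Ephb1 lies lowest.

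Cells were sorted into clusters from genes other than these families, and the clusters were called basal-like or luminal-like from keratin and other markers. Basal-like cells numbered 215 in GR17, 253 in GR18 and 222 in GR19, and luminal-like cells 50, 107 and 133. The basal-like cells of control were almost all in 1 cluster (206 of 215, high in Krt17 and Sostdc1), while those of SOX4KO were in 3 other clusters led by Postn, by Serpinf1 and Cdc6, and by Aspm. A further 120 cells, 104 of them control, carried markers of both sides and were given no name. Genes of inflammation (S100a8 and Ccl20) were among the leading genes of the luminal-like clusters, and Vegfa, Ndrg1 and Bnip3, known as hypoxia genes, among those of the Postn cluster. Over whole libraries, basal markers summed to 4989 CPM in GR17, 5193 in GR18 and 2946 in GR19, luminal markers to 1503, 1870 and 3576 CPM, and cycling markers to 1828, 1420 and 1517 CPM, and the part of these shifts in the library sums was not tested.

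Sema5a, Sema4a, Sema4b, Sema3c, Sema6a, Ephb6, Ephb3 and Plxna1 had higher values in basal-like than luminal-like cells of every library. Sema4b differed by only 0.05 on the log2 scale in GR17 and was of mixed sign at resolutions of 0.3 and 1.0 and with the guidance genes kept for clustering, which left 7. Plxna1 stayed among these 7 by sign alone. Its log2 differences were 0.08, 0.23 and 0.03 in GR17, GR18 and GR19. Its exact Poisson intervals overlapped between the classes in every library, so no clear difference was seen for Plxna1. Of 15 genes with at least 20 CPM over the class sums, 8 (53.3%) were higher in basal-like cells of all 3 libraries, where 30.2% of 6298 genes were. In all 3 libraries 1 (6.67%) was lower, where 19.7% were. The minimum was on the mean over both classes, for these genes as for all 6298. A gene can thus pass through its higher class alone, as did Ephb6, which was under 20 CPM in luminal-like cells of every library. The shares are a description for this reason. Sema5a was at 35.8 CPM in basal-like and 8.21 in luminal-like cells of GR17, at 135 and 28.1 in GR18, and at 82.3 and 15.9 in GR19. Both classes thus had more in the SOX4KO libraries than in control, with log2 differences between classes of 2.0, 2.23 and 2.30. Ephb6 was at 21.5 and 9.03 CPM in GR17, 69.1 and 17.7 in GR18, and 42.3 and 8.37 in GR19. Its basal-like levels were higher in both SOX4KO libraries, and its luminal-like level in GR19 was close to that of control. Sema4a (log2 differences 0.79, 1.19 and 1.29), Ephb3 (0.64, 0.68 and 0.71) and Sema6a (1.18, 0.17 and 1.09) were the other genes of largest difference. Efna5, an ephrin anchored by a lipid, was the 1 gene lower in basal-like cells of every library. It was at 103 and 139 CPM in GR17, 83.1 and 125 in GR18, and 93.0 and 134 in GR19. At resolutions of 0.3 and 1.0 and with the guidance genes kept for clustering, 3 of 15 were lower (Efna5, Epha2 and Sema4d). Of all genes 19.8%, 19.5% and 19.6% were lower there, so the count of lower genes is no result about these families.

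**Figure D4:**
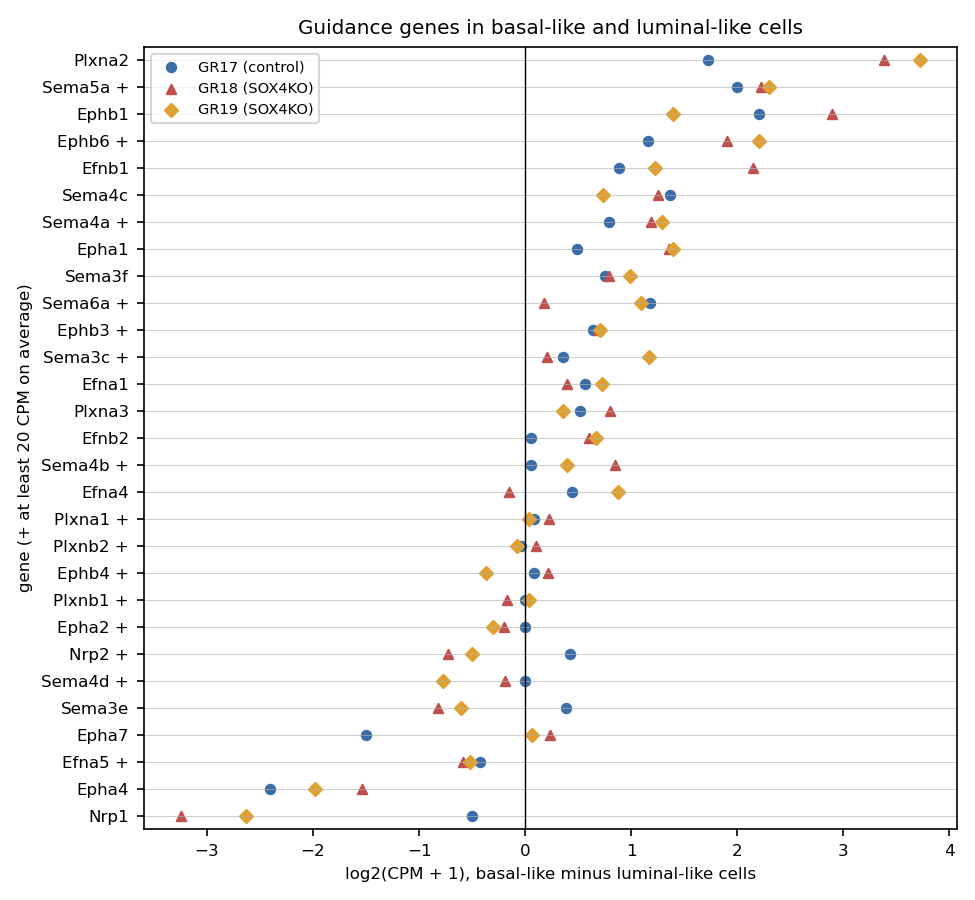
Difference in log2(CPM + 1) between basal-like and luminal-like cells, with a point for each of 3 libraries, for guidance genes with at least 5 CPM. Sema5a, Ephb6 and Plxna2 are to the right of 0 in every library, and Efna5, Epha4 and Nrp1 are to the left.

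Plxna2, Nrp1, Nrp2 and Ephb1 divided between the classes in ways that library sums do not show, and they are named here after their values were seen. Plxna2 was almost wholly in basal-like cells, at 5.00 CPM (95% exact Poisson interval 3.20 to 7.44) in GR17, 9.42 (6.99 to 12.4) in GR18 and 15.9 (12.5 to 19.95) in GR19. Luminal-like cells held 1, 0 and 1 UMIs of Plxna2, and the 0 in GR18 allows up to 1.15 CPM. The basal-like cells compared lay in different clusters in the 2 genotypes. Nrp1 was at 9.58 CPM (7.02 to 12.8) in basal-like cells of control but at 1.13 (0.415 to 2.46) and 2.36 (1.18 to 4.23) in those of GR18 and GR19. In luminal-like cells Nrp1 was at 14.0 CPM (8.13 to 22.4), 19.2 (14.3 to 25.4) and 19.8 (15.5 to 24.99), with overlapping intervals. The log2 difference between classes was therefore -0.50 in control and -3.25 and -2.63 in the SOX4KO libraries. Nrp2 was at 67.7 CPM (60.5 to 75.5) in basal-like and 50.1 (38.3 to 64.3) in luminal-like cells of GR17, with overlapping intervals. It was lower in basal-like cells of GR18, at 47.1 CPM (41.4 to 53.3) against 78.5 (68.1 to 90.1). In GR19 it was also lower there, at 50.7 CPM (44.4 to 57.6) against 72.0 (63.5 to 81.3). These intervals cover counting error only, and with 1 control library the differences between genotypes have no replicate check.

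Ephb1 was a basal-like transcript of the control library above all. It was at 22.5 CPM (18.5 to 27.2) in basal-like cells of GR17 and at 6.41 (4.44 to 8.95) and 2.36 (1.18 to 4.23) in those of GR18 and GR19, and it had 5, 0 and 1 UMIs in luminal-like cells. In bulk it was overlapping between groups, as given above, so the 2 assays differed in this gene. Epha4, an EphA receptor that binds both kinds of ephrin, was named after its values were seen and was luminal-like, at 2.92 and 19.7 CPM in GR17, 3.58 and 12.3 in GR18, and 2.58 and 13.1 in GR19.

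**Figure D5:**
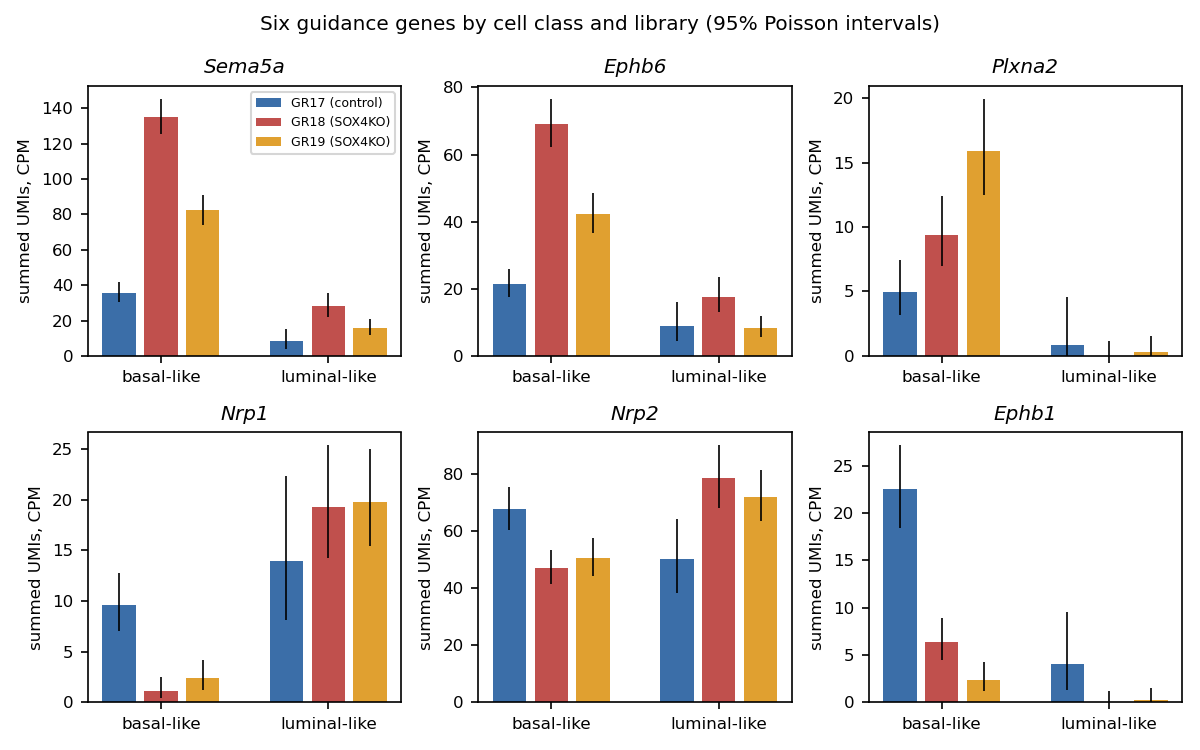
Summed UMIs in CPM for 6 guidance genes in basal-like and luminal-like cells of GR17 (control, blue), GR18 (SOX4KO, red) and GR19 (SOX4KO, yellow), with 95% exact Poisson intervals, or the 3-count limit where no UMI was counted. Sema5a, Ephb6 and Plxna2 stand higher in basal-like cells of both SOX4KO libraries, while Nrp1 and Ephb1 stand lower there.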

How the data were processed

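Bulk RNA-sequencing covered 2 control and 3 SOX4KO lines and single-cell sequencing 1 control and 2 SOX4KO libraries, each on 1 plate of 384 wells. For bulk, the counts deposited are whole reads on each gene, and for single cells they are UMI counts on each gene in each well, neither normalized by the authors. The submitters' processing notes name STAR 2.4.2a, HTSeq 0.6.1p117, Picard, R 3.6.1, edgeR, DESeq and the builds NCBIM37 and mm9, without saying which step used which. Symbols and exon lengths were matched from GENCODE on GRCm38 (36345 of 38293 identifiers with a symbol), so no gene coordinates are given other than those of RefSeq promoters on that build. Rows that name no gene held 71.6% to 83.9% of bulk reads and were left out.

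Bulk counts were tested in R 4.3.3 with edgeR 4.0.16 (glmQLFit and glmQLFTest, two-sided, all 5 lines, no covariate, after filterByExpr and TMM factors of 0.913 to 1.08), with Benjamini-Hochberg adjustment over 11682 genes and calls under 0.1. DESeq2 1.42.0 was an alternative. Each standard error is the fold change divided by the square root of its F value, CPM are TMM-normalized for single genes and unscaled for marker sums. Bulk precision is limited by 1 read being worth 0.214 to 0.328 CPM.

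Wells with at least 1000 UMIs were kept (15, 15 and 22 left out in GR17, GR18 and GR19). No doublet caller was run, and 8, 20 and 11 wells held over 2 times the median UMIs of their library. Wells carry the same 384 numbers on each plate, so a shared number marks no shared cell. Seurat 5.3.0 clustered the cells from 2000 variable genes without the guidance genes (10 principal components, 20 neighbours, resolution 0.5). UMIs were summed per library and class, differences were taken on the log2(CPM + 1) scale, which understates changes of low genes, and intervals are 95% exact Poisson. Cells are not replicates and no p was computed for them.

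Genes were named when called, when among the 10 highest per kilobase, when uncalled but without overlap and past a log2 fold change of 1, when past 2-fold in both SOX4KO single-cell libraries, or when among the 5 largest class differences in each direction. The genes and lists were chosen with earlier results of these data known. Alternatives covered other scalings, filters, thresholds, cluster settings, pseudocounts and each library left out. The steps were tested on simulated data. Quantitative PCR, staining and tumor growth were not analysed here.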

Additional observations from a re-analysis of the deposited data

How the results depend on the processing

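The rise of Plxna2, Nrp1, Nrp2, Plxnd1, Sema5a and Sema3f kept its direction under every alternative fit, and the calls depended most on the control lines. Leaving out 1 SOX4KO line at a time gave at most 8 of 34 guidance genes called higher and 0 to 1 called lower. Of all genes 3.51% to 5.37% were called higher in these fits and 2.07% to 3.29% lower. Most of the calls were lost when either control line was left out, which leaves 1 control line in the fit. At an adjusted p under 0.05, 4 of 34 were higher, where 2.06% of all genes were. Efna4 and Sema6a were called lower without TMM scaling (2 of 34) and without the filter on low counts (2 of 44). Of all genes 4.13% and 3.78% were called lower in these fits. Of the other guidance genes, 13 of 70 were called higher and 3 lower without the filter, where 5.62% and 3.78% of all genes were. At an adjusted p under 0.05, 3 of 59 were higher, where 2.06% of all genes were. Leaving out a SOX4KO line gave at most 10 higher and 0 to 1 lower, of 57 or 58 tested. Of all genes 3.51% to 5.37% were higher and 2.07% to 3.29% lower in those fits. Most calls of this list were also lost without either control line. The log2 fold change of Sox4 was called without the filter (-0.58, adjusted p = 0.0891) and ranged from -0.82 to -0.39 with a line left out, called without H4 (adjusted p = 0.0807). Some near-zero fold changes changed sign: Efna1 without WT3 (0.10) or H4 (0.0056), Plxna1 without TMM (-0.042) or H4 (-0.024), Plxnb1 without TMM (-0.15), WT1 (-0.031) or H4 (-0.16), and Plxnb2 without TMM (-0.012). The cause of these changes was not tested.

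In single cells a minimum of 5 CPM gave 1 gene of 30 higher and 1 lower past 2-fold, where 2.49% and 0.655% of all genes were. With GR19 left out, 1 control and 1 SOX4KO library remain, and the log2 differences were 1.76 for Sema5a and 1.40 for Ephb6. Between classes, 17 of 29 genes were higher and 3 lower in basal-like cells at a minimum of 5 CPM, a setting chosen after seeing the data, where 28.0% and 20.1% of all genes were. At resolution 0.3, at resolution 1.0 and with the guidance genes kept for clustering, 7 were higher, without Sema4b, and 3 were lower (Efna5, Epha2 and Sema4d). Of all genes 28.53%, 29.98% and 29.45% were higher at these settings, and 19.8%, 19.5% and 19.6% were lower. No paired analysis was possible because the lines are separate clones and their numbers only name them. With 2 control lines and 1 control single-cell library, small changes were not detectable, and genes under the filter cannot be described as unchanged.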

Other observations

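Among the clusters of basal-like cells, Sema5a was highest in the Postn cluster of SOX4KO cells at 149 CPM, against 33.2 in the cluster that held most control basal-like cells and 89.6 and 88.9 in the Serpinf1 and Aspm clusters. Ephb6 had the same order at the top, with 93.9 CPM in the Postn cluster and 20.1, 29.5 and 44.8 in the others. Epha7, an EphA receptor, was at 34.0 CPM in the Postn cluster, 7.73 in the control cluster, and 12.6 and 14.1 in the Serpinf1 and Aspm clusters. The Postn cluster was low in cycling markers, with a mean log2 deviation from all clusters of -1.52. That deviation was 0.97 in the control cluster and 0.72 and 0.93 in the Serpinf1 and Aspm clusters. The part of cycling in these differences was not tested. Over whole single-cell libraries Epha7 was at 12.4 CPM in GR17, 19.2 in GR18 and 20.2 in GR19, while in bulk it was at 105 and 66.3 CPM in WT1 and WT3 and at 75.4, 43.6 and 58.9 in H7, M4 and H4, with overlapping groups (log2 fold change -0.52 ± 0.27 SE, adjusted p = 0.377 by edgeR). Nrp1 was at 25.4 and 14.5 CPM in the luminal-like clusters and at most 9.61 in any other. In the 120 unnamed cells, mostly of control, Sema5a was at 24.2 CPM, Ephb6 at 21.0 and Nrp2 at 49.0. These are sums over cells of clusters made from the same cells, given as values with no test, and the genes were chosen after their values were seen.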
